A study of Mus musculus with 44 samples.

Results

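Cultured mouse cortical neurons were stimulated for 30 min with glutamate and glycine (glu/gly) and compared with an unstimulated culture. These 2 cultures gave 6 of the 44 samples of the series: the RNA-seq, ribosome-protected fragment (RPF) and TAIL-seq libraries of the glu/gly culture, and the same 3 libraries of the unstimulated control culture. The 6 samples were chosen by their labels, with no use of measured values. The series as a whole asked how translational efficiency (TE), poly(A)-tail length, microRNAs and neuronal activation relate to one another in neurons. Both cultures held primary cortical neurons of newborn C57BL/6J pups of both sexes, pooled from several pups, treated with cytosine arabinoside to limit dividing cells and kept for 14 days in vitro (DIV14). The stimulus was the only labelled difference between them. Each culture gave 1 library per assay, so no difference here has a replicate check and no p-value is given. The same control also served a culture stimulated with BDNF for 30 min, so comparisons of the BDNF and the glu/gly cultures with it are not independent. The DIV14 series was prepared in more than 1 batch of cultures, and the labels do not say which culture came from which batch. Batch and stimulus therefore cannot be told apart. The BDNF culture and a DIV14 culture transduced with a lentivirus expressing GFP serve here only to place these 2 cultures among others of the same age.

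RNA-seq reads counted on genes numbered 508771 in the control culture and 601563 after glu/gly, RPFs 4337282 and 2812215, and TAIL-seq tags 1042761 and 799603. The median counted gene had 16 and 18 RNA-seq reads, 88 and 57 RPFs, and 26 and 21 tags. RNA-seq was thus the shallowest assay per gene and RPFs the deepest. The BDNF and GFP cultures had 479526 and 448022 RNA-seq reads, 3697441 and 2949577 RPFs, and 1057812 and 389654 tags. Raw counts of the cultures are therefore not on the same scale. Levels are given in CPM, the usual scaling of a count by the library total, here the total on genes, and a fold is a ratio of CPM. Genes were compared in an assay when they had at least 50 counts in the 2 libraries together, and a gene was counted as higher or lower when it was past 2-fold. Each interval of a fold is an exact 95% Clopper-Pearson interval, which covers counting error only and not the spread between cultures. Of 12 neuron markers, all passed the minimum in RNA-seq and RPFs, none was past 2-fold, and their median log2 change was 0.08 in RNA-seq and 0.10 in RPFs. Astrocyte RNA was present too, at 2292 and 1855 CPM in RNA-seq for 10 markers in the control and the glu/gly culture. These markers summed to 2890 and 2869 CPM in RPFs and to 1385 and 1271 CPM in tags. Of the 8 that passed in RNA-seq, 1 was lower, the gap junction gene Gja1, beside 0.861% of all genes. Gja1, with 56 and 24 reads, passed that minimum only through its control reads. None of the astrocyte markers was past 2-fold in RPFs or tags. Microglial markers were near the limit of detection. Their 10 genes summed to 31.4 and 24.9 CPM in RNA-seq, none reached 50 counts, and Csf1r and Cx3cr1 each had 1 RNA-seq read in both cultures.

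Glutamate, with glycine as co-agonist, opens NMDA receptors, and the calcium that enters reaches the nucleus through kinases that act on CREB and on the serum response factor. These factors then switch on immediate-early genes (IEGs) without a need for new protein. The cAMP response element (CRE), TGACGTCA, and its core, TGACG, are bound by CREB, and the CArG box is bound by serum response factor. IEGs encode transcription factors, such as the Fos, Jun, Egr and Nr4a families and Npas4, and effectors that act at the synapse or feed back on kinases, such as Arc and the Dusp phosphatases. RNA-seq here measured fragments along the coding sequence, RPFs measured ribosomes on it, and each TAIL-seq tag measured 1 polyadenylated 3′ end together with the length of its tail.

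In RNA-seq, 121 of 5229 genes were higher after glu/gly (2.31%) and 45 were lower (0.861%). In RPFs, 31 of 9877 genes were higher (0.314%) and 129 were lower (1.31%). In TAIL-seq tags, 18 of 6131 genes were higher (0.294%) and 30 were lower (0.489%). The 3 assays therefore differed in which direction held more genes, and changes were centered near 0 in each, with medians of -0.03, -0.05 and 0 on the log2 scale. Requiring the same direction in all 3 left 5 higher genes of 4167 (0.120%) and 0 lower genes (0%). The 5 genes were Arc, Arl4d, Fos, Junb and Nr4a1. Another 8 genes, Btg2, Dusp1, Egr1, Egr4, Fosb, Gadd45g, Ier2 and Npas4, were higher in 2 assays. All but Arl4d of these 13 are well-known activity-induced genes or early growth-response genes. Of the genes higher in all 3 assays, Arc, Arl4d, Fos and Nr4a1 passed the RNA-seq minimum only through their reads after glu/gly. Fos, for example, had 7 reads in the control and 178 after glu/gly. The 5 higher and 0 lower genes therefore describe the 4167 that passed and not all genes. With the minimum set at 20 counts, 8 genes were higher in all 3 assays and 2 were lower, Fbln5 and Slco1a4.

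Promoters of 6 of these genes are shown, to display where CRE sequences stand in genes that were higher together. Each is the stretch of 250 bases before the RefSeq start on GRCm38.p6, printed 5′ to 3′ on the strand of the gene, with the CRE and its TGACG core (either strand, written CGTCA on the other) in capitals. Fos lies on the plus strand (chr12:85473640-85473889), Npas4 on the minus strand (chr19:4989972-4990221), Nr4a1 on the plus strand (chr15:101266596-101266845), Junb on the minus strand (chr8:84978749-84978998), Arl4d on the plus strand (chr11:101665291-101665540) and Dusp1 on the minus strand (chr17:26508473-26508722).
Fos: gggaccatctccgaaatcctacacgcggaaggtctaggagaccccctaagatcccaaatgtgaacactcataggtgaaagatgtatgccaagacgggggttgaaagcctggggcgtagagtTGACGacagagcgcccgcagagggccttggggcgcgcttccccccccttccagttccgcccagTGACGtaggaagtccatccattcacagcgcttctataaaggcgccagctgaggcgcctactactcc
Npas4: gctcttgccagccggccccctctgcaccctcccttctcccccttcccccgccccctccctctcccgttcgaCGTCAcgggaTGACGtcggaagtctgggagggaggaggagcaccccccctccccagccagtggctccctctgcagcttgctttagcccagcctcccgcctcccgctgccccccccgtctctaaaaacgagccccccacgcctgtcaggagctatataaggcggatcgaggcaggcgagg
Nr4a1: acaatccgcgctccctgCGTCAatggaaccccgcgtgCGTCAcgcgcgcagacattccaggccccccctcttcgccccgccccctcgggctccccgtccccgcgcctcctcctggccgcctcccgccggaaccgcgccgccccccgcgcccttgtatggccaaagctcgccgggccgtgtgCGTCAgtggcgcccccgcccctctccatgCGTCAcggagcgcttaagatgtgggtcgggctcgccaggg
Junb: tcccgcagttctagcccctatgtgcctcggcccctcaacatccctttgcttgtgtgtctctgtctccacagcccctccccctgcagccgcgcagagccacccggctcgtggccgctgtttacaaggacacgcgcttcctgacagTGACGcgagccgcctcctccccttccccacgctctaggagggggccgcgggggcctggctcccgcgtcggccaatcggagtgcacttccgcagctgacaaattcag
Arl4d: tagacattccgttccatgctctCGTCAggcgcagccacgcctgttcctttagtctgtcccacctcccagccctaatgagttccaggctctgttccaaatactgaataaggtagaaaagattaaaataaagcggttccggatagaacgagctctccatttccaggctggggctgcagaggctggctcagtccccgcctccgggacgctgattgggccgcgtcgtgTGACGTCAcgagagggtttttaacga
Dusp1: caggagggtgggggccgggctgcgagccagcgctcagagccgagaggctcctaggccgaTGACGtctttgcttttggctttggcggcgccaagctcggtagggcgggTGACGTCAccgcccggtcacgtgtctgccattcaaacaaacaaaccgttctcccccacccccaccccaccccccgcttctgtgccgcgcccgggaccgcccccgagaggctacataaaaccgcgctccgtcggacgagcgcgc
The motif search also took in the first 50 bases after the start. The TGACG core stood in the promoters of all 4 of the genes higher in every assay that had a RefSeq promoter, and in 9 of 10 of those higher in at least 2 assays. The gene of the 10 without it was Gadd45g, which is not among the 6 shown. The core stood in 33.0% of the promoters of 12029 counted genes. Among all genes higher in 1 assay, the core stood in 35 of 89 promoters for RNA-seq (39.3%), 16 of 24 for RPFs (66.7%) and 13 of 15 for tags (86.7%). Among 34 IEG transcription factors, 19 of 24 promoters had it (79.2%). The complete CRE, which contains the core on both strands, was rarer, at 3.36% of all promoters, and among the 10 it stood in those of Arl4d, Btg2 and Dusp1. CArG boxes stood in 1.60% of all promoters and in none of these 10, within this window, but in 2 of the 24 IEG transcription factors (8.33%, Egr2 and Srf) and in 3 of 24 genes higher in RPFs (12.5%, Dusp5, Egr2 and Ints6l). These matches describe sequence and were not tested as binding sites.

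Fos (NM_010234, chr12:85473890-85477274), the partner of Jun proteins in the AP-1 transcription factor, had the strongest change among the genes that passed in all 3 assays. It had 7 RNA-seq reads in the control culture and 178 after glu/gly, beside 222 after BDNF and 20 in the GFP culture. Its RPFs numbered 186 in the control and 2072 after glu/gly, and its tags 87 and 510. These counts gave folds of 21.5 in RNA-seq (10.2 to 54.3), 17.2 in RPFs (14.8 to 20.1) and 7.64 in tags (6.08 to 9.71). The tag fold was below the other intervals. Npas4 (NM_153553, chr19:4984353-5003439), a transcription factor that is largely restricted to neurons and induced by calcium, had 2 RNA-seq reads in the control and 83 after glu/gly, for a ratio of 35.1 with a wide interval (9.42 to 295). RPFs measured it better, with 91 and 1193, a 20.2-fold difference (16.3 to 25.3). After BDNF there were 1122 Npas4 RPFs and in the GFP culture 89.

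Arc (NM_018790, chr15:74669081-74672570) encodes a synaptic protein that helps internalize AMPA receptors. It had 10 and 117 RNA-seq reads, 199 and 1033 RPFs, and 32 and 126 tags in the control and the glu/gly culture. The folds were 9.90 (5.19 to 21.2), 8.01 (6.87 to 9.37) and 5.13 (3.46 to 7.83), with overlapping intervals. BDNF gave 249 reads, 3201 RPFs and 385 tags, a higher level than glu/gly in every assay (519 CPM beside 194, 866 beside 367 and 364 beside 158). Nr4a1 (NM_010444, chr15:101253902-101274795), an orphan nuclear receptor, had 9 and 49 reads, 155 and 663 RPFs, and 45 and 210 tags. Its RPF and tag folds were alike, at 6.60 (5.53 to 7.91) and 6.09 (4.39 to 8.60). After BDNF, Nr4a1 had 49 reads, 724 RPFs and 219 tags, which was a higher level than after glu/gly in RNA-seq (102 CPM beside 81.5) and a lower one in RPFs (196 beside 236) and tags (207 beside 263).

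Junb (NM_008416, chr8:84976909-84978748), another AP-1 protein, started from higher control counts of 33 reads, 400 RPFs and 110 tags. After glu/gly it had 153, 1119 and 242, which were 3.92-fold (2.68 to 5.90), 4.31-fold (3.85 to 4.85) and 2.87-fold higher (2.28 to 3.63). Arl4d (NM_025404, chr11:101665541-101667832), a small ARF-like GTPase, had 11 reads, 79 RPFs and 26 tags in the control. After glu/gly these numbers were 46, 245 and 63, for folds of 3.54 (1.80 to 7.57), 4.78 (3.70 to 6.24) and 3.16 (1.97 to 5.20). The GFP culture, which was not stimulated, had 17 reads, 79 RPFs and 20 tags of Arl4d, which were 1.76-fold, 1.47-fold and 2.06-fold of the control level. For each of these 5 genes the glu/gly culture was above both unstimulated cultures in all 3 assays.

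**Figure D1:**
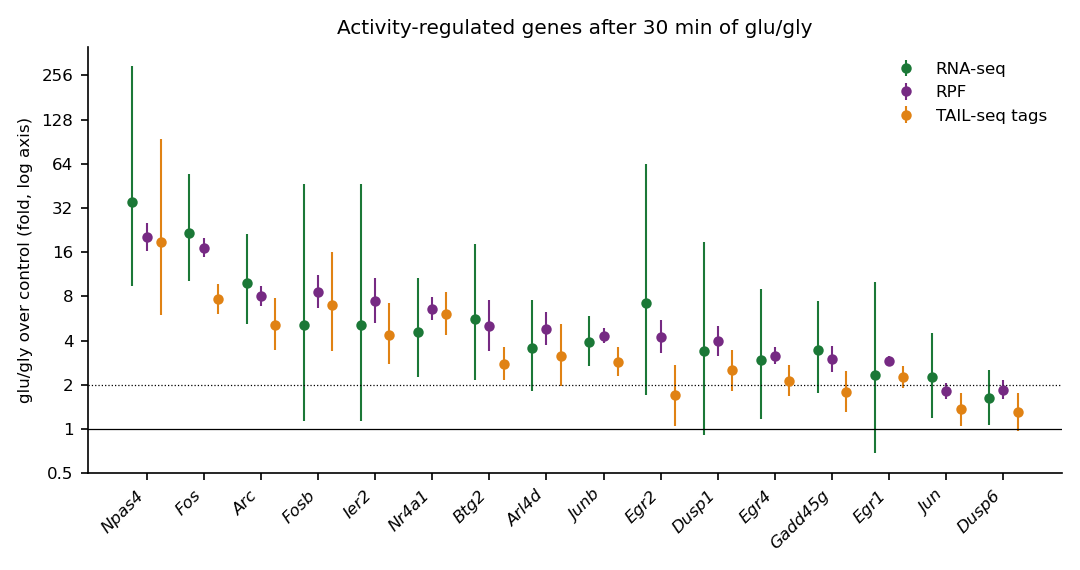
Fold of glu/gly over control for 16 activity-induced genes on a log axis, with 95% counting intervals, in RNA-seq, RPFs and TAIL-seq tags from 1 library each. RPF intervals are the narrowest, and Fos and Npas4 stand furthest from 1.

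The Egr zinc-finger factors did not move alike. Egr1 had 4 and 11 RNA-seq reads, too few to compare, but 1256 RPFs in the control and 2379 after glu/gly, a 2.92-fold difference (2.73 to 3.13), and 213 and 367 tags, a 2.25-fold difference (1.89 to 2.67). Egr4 had 313 and 639 RPFs (3.15-fold, 2.75 to 3.62) and 114 and 186 tags (2.13-fold, 1.68 to 2.71). Egr2 was 4.22-fold higher in RPFs, from 83 to 227 (3.27 to 5.49), but 1.69-fold higher in tags, from 34 to 44 (1.05 to 2.72). Egr3 stayed below 2-fold in both assays. Its RPFs went from 375 to 245, a fold of 1.01 (0.854 to 1.19), and its tags from 93 to 118, a fold of 1.65 (1.25 to 2.20). After BDNF every one of the 4 had a higher RPF level than after glu/gly, 1438 CPM beside 846 for Egr1, 427 beside 227 for Egr4, 267 beside 80.7 for Egr2 and 148 beside 87.1 for Egr3.

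Members of the Fos, Jun and Nr4a families differed too. Fosb, a second Fos protein, had 73 RPFs in the control and 407 after glu/gly, an 8.60-fold difference (6.69 to 11.2), and 9 and 48 tags. After BDNF it had 369 RPFs, a lower level than after glu/gly (99.8 CPM beside 145). Fosl2 had 260 and 180 RPFs, a fold of 1.07 (0.878 to 1.30). Jun was past 2-fold in RNA-seq alone, with 14 and 37 reads, 468 and 550 RPFs (1.81-fold, 1.60 to 2.05) and 123 and 128 tags (1.36-fold, 1.05 to 1.75). Jund, which is expressed constitutively, was short of 2-fold in each assay. It had 81 and 102 reads, 515 and 274 RPFs (0.821, 0.706 to 0.952) and 160 and 137 tags. Of the Nr4a receptors, Nr4a2 had 33 and 43 RPFs, which was just past the limit at 2.01-fold (1.25 to 3.26), and Nr4a3 had 294 and 186 RPFs, a fold of 0.976 (0.808 to 1.18). Atf3, a stress- and activity-induced factor, was too scarce to pass the minimum, but had 5 and 32 RPFs and 3 and 23 tags. Ier2, an immediate-early nuclear protein, had 41 and 197 RPFs, a 7.41-fold difference (5.27 to 10.6), and 25 and 84 tags (4.38-fold, 2.78 to 7.15).

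Of the 34 IEG transcription factors, 7 passed the minimum in RNA-seq and 5 of them were higher, with a median log2 change of 1.97, beside 2.31% and -0.03 for all genes. Fos, Npas4, Nr4a1 and Jun passed that minimum only through their counts after glu/gly, so this count and median describe the 7 and not the list. RPFs reached 29 members, of which 11 were higher and 0 lower, with a median of 0.19, beside 0.314% higher and -0.05 for all genes. Tags reached 21, of which 8 were higher and 1 was lower, with a median of 0.44, beside 0.294% higher and 0 for all genes. The lower one was Id1, an inhibitor of basic helix-loop-helix factors, with 46 and 17 tags. Fosb and Ier2, with 9 and 25 control tags, passed the tag minimum only through their counts after glu/gly. The tag count and median therefore describe the 21 and not the list. The 18 members with RPFs short of 2-fold included Myc, Srf, Per1, Per2, Klf6, Klf10 and Nfil3. For example, Srf, the serum response factor itself, had 94 and 55 RPFs (0.902, 0.635 to 1.27), and Per1, a clock gene with CRE-driven transcription, had 433 and 295 (1.05, 0.903 to 1.22).

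Among 38 activity-regulated effectors, 15 passed the minimum in RNA-seq and 4 were higher, namely Arc, Arl4d, Gadd45g and Vgf, beside 2.31% of all genes. The first 3 passed through their counts after glu/gly, so this count describes the 15 and not the list. Gadd45g, a growth-arrest and DNA-repair protein, had 11 and 45 reads (3.46-fold, 1.76 to 7.42), 145 and 281 RPFs (2.99-fold, 2.44 to 3.68) and 70 and 96 tags (1.79-fold, 1.30 to 2.47). Vgf, a secreted neuropeptide precursor, was higher in RNA-seq only, with 44 and 118 reads (2.27-fold, 1.59 to 3.28), 3988 and 3125 RPFs (1.21-fold, 1.15 to 1.27) and 265 and 254 tags. The matricellular gene Ccn1 was past 2-fold in tags, with 54 and 84 (2.03-fold, 1.42 to 2.91), and had 819 and 937 RPFs (1.76-fold, 1.60 to 1.94). The other effectors that passed were short of 2-fold in RPFs and tags. Bdnf, the neurotrophin, had 115 and 76 RPFs, a fold of 1.02 (0.753 to 1.37), and 56 and 45 tags, although its RNA-seq reads went from 11 to 33. The long Homer1 mRNA (NM_147176), which encodes a postsynaptic scaffold, had 79 and 99 reads (1.06-fold, 0.781 to 1.44), 264 and 132 RPFs (0.771, 0.621 to 0.954) and 77 and 67 tags (1.13-fold, 0.805 to 1.60). Nptx2, a synaptic pentraxin, had 122 and 61 RPFs (0.771, 0.558 to 1.06) and 45 and 53 tags (1.54-fold, 1.01 to 2.34).

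Among genes that feed back on MAP kinases, the higher ones were phosphatases. Of 16 such genes, 14 passed in RPFs and 2 were higher, beside 0.314% of all genes. Dusp1 (NM_013642, chr17:26505591-26508472) dephosphorylates MAP kinases in the nucleus and had 104 and 266 RPFs (3.94-fold, 3.13 to 5.0) and 60 and 115 tags (2.5-fold, 1.81 to 3.47). Dusp5, which acts on nuclear ERK, had 34 and 46 RPFs (2.09-fold, 1.31 to 3.35). Dusp6, which acts on cytoplasmic ERK, stayed short of 2-fold in every assay, with 36 and 69 reads (1.62), 315 and 378 RPFs (1.85) and 97 and 97 tags (1.30). None of the Sprouty and Spred inhibitors that passed was past 2-fold in RPFs, for example Spry2 with 186 and 102 (0.846, 0.658 to 1.08) and Spred1 with 214 and 93 (0.670, 0.520 to 0.859). Of the 10 BTG/TOB and ZFP36 genes, which promote deadenylation and decay of mRNAs, Btg2 (NM_007570, chr1:134074865-134079155) was higher. It had 5 and 33 reads, 36 and 117 RPFs (5.01-fold, 3.42 to 7.50) and 89 and 189 tags (2.77-fold, 2.14 to 3.60). Tob2 was lower in tags, with 46 and 16 (0.454, 0.240 to 0.816), but not in RPFs, with 90 and 52 (0.891, 0.621 to 1.27).

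RPFs per tag, a measure of translation that does not use the RNA-seq library, differed among the IEGs. This measure was added after seeing the data and was scaled to counts on genes, unlike TE. Its intervals, and those of TE, are 95% normal approximations from the 4 counts and cover counting error only. Of 3478 genes with at least 50 tags and at least 1 RPF in both cultures, 4 were past 2-fold higher (0.115%) and 40 lower (1.15%), with a median of -0.10 and an SD of 0.352 on the log2 scale. Fos was 1 of the 4, at 1.17 (0.78 to 1.56). The interval also lay above 0 for Btg2 at 0.86 (0.21 to 1.51), Gadd45g at 0.74 (0.21 to 1.27), Dusp1 at 0.66 (0.10 to 1.21), Junb at 0.59 (0.22 to 0.95), Egr4 at 0.57 (0.18 to 0.95), Dusp6 at 0.51 (0.05 to 0.96), Jun at 0.42 (0.02 to 0.82) and Egr1 at 0.38 (0.12 to 0.64). The interval lay below 0 for Egr3 at -0.72 (-1.17 to -0.26), Jund at -0.44 (-0.84 to -0.05) and Cebpb at -0.79 (-1.55 to -0.03). Each of these but Fos was short of 2-fold. Among IEGs with fewer tags, outside this set, it lay above 0 for Egr2 at 1.32 (0.58 to 2.06). It also did for Arc at 0.64 (0.04 to 1.24) and Klf6 at 0.74 (0.14 to 1.33). It spanned 0 for Nr4a1, at 0.12 (-0.41 to 0.64), and Ier2, at 0.76 (-0.05 to 1.56). For Crem it lay below 0, at -1.02 (-1.9 to -0.13). Of these, Egr2 and Crem were past 2-fold. TE from RNA-seq could be taken for Junb, at -0.17 (-0.73 to 0.40), and for few other IEGs, because most had under 10 RPM in RNA-seq in the control.

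Genes that were lower after glu/gly included genes of dividing, vascular and connective-tissue cells and interferon-stimulated genes. The BDNF and GFP cultures are given beside them, but as the genes were chosen for a high level in the control, a lower level elsewhere says little by itself. Even without any stimulus, the GFP culture differed from the control in more RPF and tag genes than glu/gly did, with 47 genes higher (0.474%) and 271 lower (2.73%) of 9917 in RPFs, and 61 (1.14%) and 146 (2.72%) of 5359 in tags. In RNA-seq it had 29 genes higher (0.613%) and 64 lower (1.35%) of 4733. Its tag library was shallower, with 389654 tags on genes beside 799603 after glu/gly, and the part of depth in these counts was not tested. In bulk samples, fewer cells of a type and less RNA per cell cannot be told apart.

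Of 8 proliferation markers, 5 passed in RPFs and 4 were lower, beside 1.31% of all genes. Some, such as Mki67, passed the minimum through their control counts, so the 4 do not stand for the list. The 8 genes summed to an RPF level of 109 CPM in the control, 45.2 after glu/gly, 41.7 after BDNF and 42.4 in the GFP culture. Mki67, a marker of cycling cells, had 50 RPFs in the control and 6, 7 and 4 in the other 3 cultures. Top2a (NM_011623, chr11:98992947-99024199), the topoisomerase of dividing cells, had 45 and 9 RNA-seq reads (0.169, 0.0727 to 0.350) and 118 and 37 RPFs (0.484, 0.325 to 0.705), beside 5 reads and 25 RPFs after BDNF and 3 reads and 20 RPFs in the GFP culture. Cdk1, the mitotic kinase, had 17 RNA-seq reads in the control and 0 in each of the other 3. In the sum of RPFs the glu/gly culture was not lower than the GFP culture.

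Vascular and connective-tissue genes also had their highest RPF sums in the control, and the order of the other 3 cultures differed between the lists. The 8 endothelial and mural markers summed to an RPF level of 212 CPM in the control and to 114, 85.2 and 119 after glu/gly, after BDNF and with GFP. Most of these RPFs were those of Acta2, given under the other observations. Kdr, a VEGF receptor, had 181 and 57 RPFs in the control and the glu/gly culture, while Cldn5, which defines brain endothelium, had 0 RPFs in the control and 1 after glu/gly. Among 30 matrix and fibroblast genes, a list chosen after values were seen, 4 of 24 were lower in RPFs (1.31% of all genes) and the sum went from 5704 CPM to 4024, beside 3929 and 3598. Of the 4, Cnn1, with 70 and 12 RPFs, passed the minimum only through its control count, so the 4 describe the 24 and not the list. Fbln5 (NM_011812, chr12:101746565-101819119), an elastic-fiber protein, was lower in RPFs, 323 and 104 (0.497, 0.394 to 0.621), and in tags, 62 and 21 (0.442, 0.256 to 0.735). BDNF left 122 RPFs of Fbln5 and GFP left 78. Lgals1, a galectin of non-neuronal cells, had 227 and 64 RPFs, beside 79 and 88. Interferon-stimulated genes, also listed after values were seen, were lower in 6 of the 15 that passed in RPFs, beside the same 1.31%, among them Isg15 with 68, 18, 18 and 3 RPFs in the control, glu/gly, BDNF and GFP cultures, and Ifit1 with 54, 15, 18 and 3. Isg15 and Ifit1 passed the minimum only through their control counts, so the 6 describe the 15 and not the list.

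A total of 7 genes were lower in 2 assays, namely Bace2, Fbln5, Itih5, Lats2, Pmaip1, Tmem123 and Top2a. Lats2, a kinase of the Hippo pathway, had 55 and 23 RNA-seq reads (0.354, 0.207 to 0.585) and 72 and 21 tags (0.380, 0.222 to 0.626), but 109 and 66 RPFs (0.934, 0.677 to 1.28). BDNF left 27 reads and 44 tags of it and GFP left 20 reads and 9 tags. Its tag level was 69.0 CPM in the control, 26.3 after glu/gly, 41.6 after BDNF and 23.1 with GFP. Bace2, a membrane protease, had the same form, with 48 and 18 reads, 169 and 90 RPFs (0.821, 0.629 to 1.07) and 73 and 23 tags. Both genes were thus lower in RNA but not in ribosome counts. Pmaip1, a pro-apoptotic BH3 protein, was lower in RPFs, 62 and 19 (0.473, 0.267 to 0.801), and tags, 44 and 11 (0.326, 0.152 to 0.642), and its 43 RPFs in the GFP culture set it apart from the proliferation genes.

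**Figure D2:**
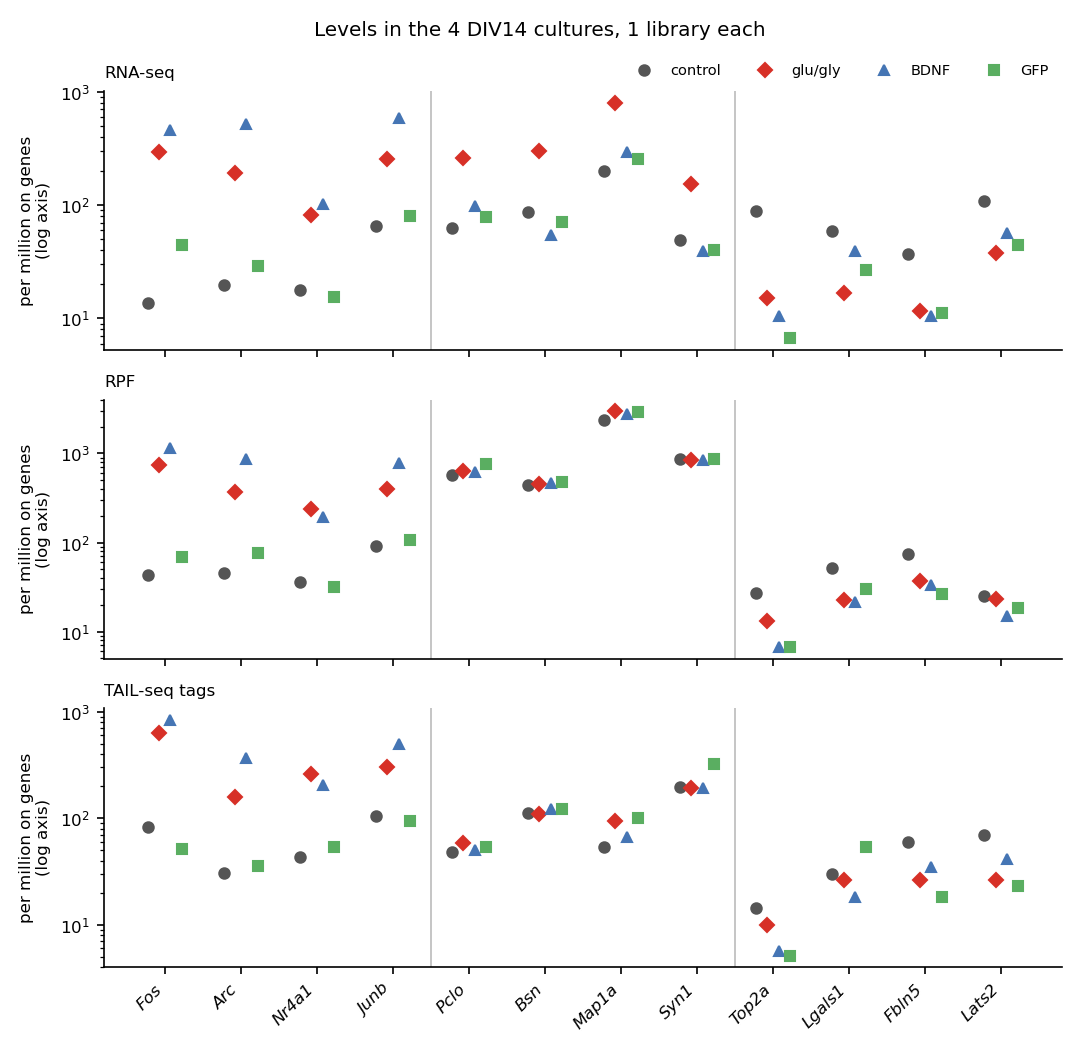
Levels (CPM of counts on genes) of 12 genes in the control, glu/gly, BDNF and GFP cultures (DIV14), for RNA-seq, RPFs and TAIL-seq tags, 1 library per point. Fos, Arc, Nr4a1 and Junb are high after both stimuli, Pclo, Bsn, Map1a and Syn1 are high in the glu/gly RNA-seq library alone, and Top2a, Lgals1, Fbln5 and Lats2 are highest in the control in RNA-seq.

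The largest group of changes appeared in RNA-seq alone. Of the 121 genes higher in RNA-seq, 7 were past 2-fold in RPFs as well, and 5 of the 86 that passed the minimum in tags were past 2-fold there. Their median log2 change was 1.27 in RNA-seq, 0.18 in RPFs and 0.13 in tags. Their coding sequences were long, with a median of 3844.5 nt beside 1671 nt for all genes compared. By count, the 129 genes lower in RPFs were more, and they too were mostly past 2-fold in that assay alone. Of them, 1 of the 6 that passed in RNA-seq and 3 of the 41 that passed in tags were past 2-fold lower there. Their coding sequences were short, with a median of 834 nt beside 1485 nt for all genes compared in RPFs.

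Among the genes higher in RNA-seq were genes of large synaptic proteins. Pclo (NM_011995, chr5:14514906-14863465) and Bsn (NM_007567, chr9:108096022-108190419) encode Piccolo and Bassoon, the giant scaffolds of the presynaptic active zone. Pclo had 32 RNA-seq reads in the control and 157 after glu/gly (4.15-fold, 2.82 to 6.27), with 47 after BDNF and 35 in the GFP culture. Its RPFs, 2458 and 1770, and its tags, 50 and 47, gave folds of 1.11 (1.04 to 1.18) and 1.23 (0.805 to 1.86). Bsn had 44 and 179 reads (3.44-fold, 2.46 to 4.90), 1938 and 1268 RPFs (1.01-fold, 0.939 to 1.08) and 118 and 88 tags (0.973, 0.729 to 1.29). For both genes, the RNA-seq value of the glu/gly culture was the highest of the 4 cultures, and the changes in RPFs and tags were short of 2-fold.

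Some postsynaptic scaffolds and cytoskeletal proteins were also past 2-fold in RNA-seq and not in RPFs. Shank1, Shank2 and Shank3, which link glutamate receptors to actin, had 22 and 111, 25 and 72, and 38 and 108 reads, for folds of 4.27 (2.68 to 7.08), 2.44 (1.53 to 4.01) and 2.4 (1.65 to 3.58). Their RPF folds were 1.28 (1.12 to 1.47), 0.958 (0.843 to 1.09) and 0.832 (0.710 to 0.974). Their tags were too few to compare, with 0 for Shank1 in both cultures. Map1a, a microtubule-associated protein of mature dendrites, had 103 and 483 reads (3.97-fold, 3.20 to 4.96), 10188 and 8324 RPFs (1.26-fold, 1.22 to 1.30) and 56 and 76 tags (1.77-fold, 1.24 to 2.55), so both other assays were above 1 as well. Syn1, which tethers synaptic vesicles and has a shorter coding sequence of 2121 nt, had 25 and 92 reads (3.11-fold, 1.98 to 5.06), 3786 and 2361 RPFs (0.962, 0.913 to 1.01) and 203 and 155 tags (0.996, 0.803 to 1.23). Of the listed genes that passed, 4 of 24 dendritic and postsynaptic genes and 4 of 23 synaptic vesicle genes were higher in RNA-seq, beside 2.31% of all genes, and none of the 28 and 25 that passed was past 2-fold in RPFs. Shank1 passed the RNA-seq minimum only through its reads after glu/gly, so the postsynaptic count describes the 24 and not the list.

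**Figure D3:**
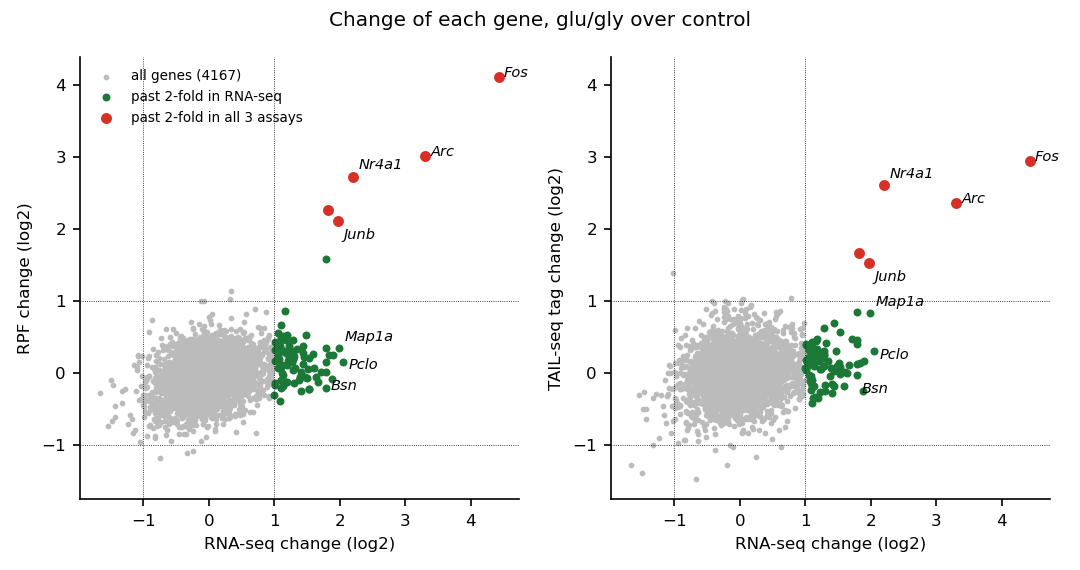
Log2 change after glu/gly in RNA-seq against the change in RPFs and in TAIL-seq tags, each point 1 of 4167 genes with at least 50 counts in every assay. The 5 genes past 2-fold in all 3 assays lie at the upper right of both panels. Pclo, Bsn and Map1a lie far along the RNA-seq axis, short of 2-fold in RPFs and tags, and the unlabelled Bace2, Itih5 and Lats2 lie at the lower left of the tag panel.

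The RNA-seq change ran with the length of the coding sequence. In the 131 genes with a coding sequence over 6000 nt the median log2 change was 0.52 in RNA-seq, 0.20 in RPFs and 0.15 in tags, and 22 of them were higher in RNA-seq (2.31% of all genes). In the 258 genes of at most 500 nt the medians were -0.20, -0.32 and 0.01, and 1 gene was higher in RNA-seq. The GFP culture had medians of 0.06 in RNA-seq, 0.21 in RPFs and -0.21 in tags for the longest class, beside -0.12, -0.24 and 0.12 for the shortest. Its RPF medians ran with length as those of glu/gly did, while its RNA-seq medians spanned less. Across 4152 genes, the Spearman correlation of the change after glu/gly with coding-sequence length was 0.37 in RNA-seq, 0.42 in RPFs and 0.06 in tags. These are correlations across genes of 1 pair of libraries that share depth and handling, and are given as a description. The part of coding-sequence length in the RNA-seq changes of single genes was not tested.

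The receptors that glutamate acts on were slightly higher in ribosome counts. Of 18 ionotropic glutamate receptor subunits, 16 passed in RPFs and all 16 were above 0 on the log2 scale, none past 2-fold, with a median of 0.34 beside -0.05 for all genes. Gria2, the AMPA receptor subunit that blocks calcium entry, had 4828 and 4388 RPFs (1.40-fold, 1.35 to 1.46). Grin1, the obligatory NMDA receptor subunit, had 5865 and 4852 RPFs (1.28-fold, 1.23 to 1.33) and 228 and 222 tags (1.27-fold, 1.05 to 1.53). Grin2b, an NMDA receptor subunit prominent in young neurons, was the only member past 2-fold in RNA-seq, with 120 and 323 reads (2.28-fold, 1.84 to 2.83) beside 2575 and 2051 RPFs (1.23-fold, 1.16 to 1.30). The 6 metabotropic receptors that passed were also all above 0 in RPFs, with a median of 0.27. The 18 ionotropic subunits summed to an RPF level of 4647 CPM in the control, 5980 after glu/gly, 5514 after BDNF and 5478 in the GFP culture. The control was thus the lowest of the 4 cultures, and the stimulated culture was 1 of 3 above it.

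TE is the ratio of RPFs to RNA-seq reads, both in the RPM of the deposited files, and was compared for 4731 genes with at least 10 RPM of RNA-seq in both cultures. After glu/gly, 3 genes were past 2-fold higher (0.0634%) and 194 lower (4.10%), with a median log2 change of -0.30. The RPM values deposited by the authors summed, over the genes listed, to 21.6% of their full total in the control and 23.4% after glu/gly in RNA-seq, and to 67.5% and 59.3% in RPFs. These shares by themselves amount to -0.30 on the log2 scale, and scaled to counts on genes the median was 0.01. Centered on the median, 21 genes were higher and 43 lower. The 194 genes had a median RNA-seq change of 0.72, an RPF change of -0.18 and a tag change of 0.05 (149 genes). They were chosen by the ratio of RPFs to RNA-seq, so the RNA-seq and RPF medians follow in part from that choice. Of the 194, 46 were among the RNA-seq genes past 2-fold higher and 3 among the RPF genes past 2-fold lower. Measured as RPFs per tag, 2 of the 108 that could be tested were past 2-fold lower. RPFs per tag were scaled to counts on genes, so they do not include the -0.30, and the 2 counts are not on the same scale.

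Long synaptic genes were among those with the lowest TE changes. Pclo was at -2.21 (-2.76 to -1.65), Bsn at -2.07 (-2.56 to -1.59), Syn1 at -2.00 (-2.64 to -1.36), Map1a at -1.96 (-2.27 to -1.65) and Celsr2, a large adhesion cadherin, at -1.90 (-2.37 to -1.43). With at least 50 tags in both cultures, RPFs per tag changed by 0.05 for Bsn (-0.36 to 0.46), -0.05 for Syn1 (-0.36 to 0.26), 0.11 for Celsr2 (-0.34 to 0.56) and -0.49 for Map1a (-0.99 to 0.01). With fewer tags, the change was -0.14 for Pclo (-0.72 to 0.44) and -0.90 for Shank3 (-1.77 to -0.03), whose TE change was -1.84. RPFs per tag thus changed less than TE for these 6 genes, but not to the same degree. The TE changes include the -0.30 of the library shares, and the RPFs per tag do not. Camk2a, a kinase of synaptic plasticity whose mRNA is transported to dendrites, had 74 and 156 RNA-seq reads, 6106 and 4043 RPFs (1.02-fold, 0.981 to 1.06) and 692 and 558 tags (1.05-fold, 0.939 to 1.18). Its TE change, which includes the same -0.30, was -1.11 (-1.51 to -0.71), and its RPFs per tag changed by -0.04 (-0.21 to 0.13). Scaled to counts on genes, its RNA-seq reads were 1.78-fold higher (1.34 to 2.38), short of 2-fold. The 3 genes with higher TE rested on low counts, such as Knop1, a nucleolar protein, with 43 and 27 reads and 64 and 61 RPFs, for a change of 1.16 (0.31 to 2.02).

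Poly(A) tails were compared for 3516 genes with at least 50 tags in both cultures. The median of the mean tail lengths was 112 nt in the control and 107 nt after glu/gly, the median change was -4.68 nt, and 796 genes (22.6%) had a longer mean tail after glu/gly. By 20 nt or more, 10 genes were longer (0.284%) and 81 shorter (2.30%). Synthetic RNAs with a stated tail length moved less than the median gene. The 100-nt standard read 108 nt in both libraries (5203 and 4352 tags), the 150-nt standard 150 nt in both, and the 200-nt standard 188 and 190 nt. The best counted synthetic RNA, STD13, whose name states no length, moved more, with a mean of 43.6 nt in the control (101828 tags), 39.9 nt after glu/gly (87974 tags), 44.3 nt after BDNF and 38.5 nt in the GFP culture, at a median of 27 nt in each. The part of this difference between libraries in the tail changes of genes was not tested. The direction of the overall shift depended on the reference culture. Against the control it was -8.45 nt in the GFP culture and -1.04 nt after BDNF, and against the GFP culture glu/gly was longer by 3.82 nt. Large single changes were those of thinly counted genes. Of the 81 shorter and 10 longer genes, 69 and 9 had under 100 tags in 1 of the cultures, and of 816 genes with at least 200 tags in both none changed by 20 nt, with an SD of 3.92 nt beside 8.80 nt for genes with 50 to 99 tags.

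IEG mRNAs went the other way from most. Of the 10 IEG transcription factors with enough tags, 7 had a longer mean tail, with a median change of 12.6 nt, beside 22.6% and -4.68 nt for all genes. Egr4 went from 108 to 137 nt, an increase of 29.2 nt and the largest increase among the 3516 genes. Junb went from 114 to 131 nt, Jun from 117 to 133 nt, Egr1 from 124 to 139 nt, Egr3 from 118 to 133 nt and Fos from 120 to 130 nt. Jund lengthened by 6.11 nt, and Btg2, Cebpb and Bhlhe40 were shorter, by -5.10, -1.61 and -6.15 nt. Beyond the list, Gadd45g went from 141 to 169 nt and Dusp6 from 110 to 131 nt. After BDNF, the same mRNAs had mean tails of 149 nt for Egr4, 148 nt for Junb, 160 nt for Egr1, 147 nt for Fos and 171 nt for Gadd45g, and in the GFP culture of 86.5, 102, 102, 109 and 153 nt. Both stimulated cultures were thus longer than both unstimulated ones for these 5 genes. The GFP means of Egr4 and Egr1 rested on 54 and 88 tags. Those of Junb, Fos and Gadd45g rested on 37, 20 and 14, under the minimum of 50, and are uncertain. Of the 7 genes higher in tags that had a tail value, 6 were longer.

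Outside the IEGs, tail changes were scattered. Among the 10 longest increases were Cracd, a regulator of actin capping, from 88.4 to 115 nt with 75 and 70 tags, and Yy1, a zinc-finger transcription factor, from 90.6 to 115 nt with 55 and 56 tags. Among the 10 largest decreases were Reln, the secreted reelin protein, from 148 to 116 nt with 55 and 64 tags, Cacnb1, a calcium-channel subunit, from 135 to 104 nt, and Braf, a MAP kinase kinase kinase, from 140 to 110 nt. Of the other genes that the study discusses, Camk2a went from 138 to 133 nt, Nrsn1 changed by -2.67 nt, Spred1 went from 97.8 to 105 nt and Pnrc1, a nuclear receptor coactivator, from 56.4 to 72.9 nt with 74 and 72 tags. Pnrc1 had 87.0 nt after BDNF (83 tags) and 44.5 nt in the GFP culture (40 tags, under the minimum). Across 2704 genes, the tail change had a Spearman correlation of 0.03 with the TE change and, across 3516 genes, of -0.04 with the tag change, given as descriptions.

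Other gene groups had few members past 2-fold. Stress and integrated stress response genes had no member past 2-fold among 15 in RNA-seq, 20 in RPFs and 18 in tags, with medians of 0.10, 0.04 and -0.03. The closest was Ppp1r15a, just short of 2-fold in tags, with 30 and 46 (1.24 to 3.28). Atf4, the central factor of that response, had 90 and 72 RPFs (1.23-fold, 0.892 to 1.70) and 548 and 405 tags (0.964, 0.846 to 1.10). Of translation initiation and elongation factors, 1 of 34 was lower in tags (0.489% of all genes). It was Eif6, with 50 and 17 tags, which passed the minimum only through its control tags. In RPFs, 0 of 35 were lower. For example, Eef2, the elongation factor that is phosphorylated upon NMDA receptor activation, had 6297 and 4435 RPFs (1.09-fold, 1.05 to 1.13). Potassium channels, 53 of which passed in RPFs, had none past 2-fold. Cytosolic ribosomal proteins had a median RPF change of -0.36 over 37 genes, with 5 lower (Rpl7l1, Rpl18, Rpl26, Rps4x and Rps18, beside 1.31% of all genes), but a tag change of 0.02 over 42. Rpl18 and Rps4x passed the RPF minimum only through their control counts, so the 5 describe the 37 and not the list. Many ribosomal protein genes share sequence with pseudogenes, 29 of the 84 had 0 RPFs in both cultures, and their values are uncertain. Subunits of oxidative phosphorylation had medians of -0.20 in RNA-seq, -0.25 in RPFs and 0.02 in tags, with none past 2-fold, and these genes have short coding sequences, the class with medians below 0 in RNA-seq and RPFs. Of 31 genes of mRNA deadenylation and decay, 15 passed in RNA-seq and Ago1 and Ago2, which bind microRNAs, were higher (2.31% of all genes), with 14 and 36 and 15 and 46 reads, and none was past 2-fold in RPFs or tags. Ago1 and Ago2 passed the RNA-seq minimum only through their reads after glu/gly, so this count describes the 15 and not the list.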

How the data were processed

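Primary cortical cultures of 14 days in vitro were measured by RNA-seq, ribosome profiling and TAIL-seq, with 1 library per culture and assay. The submitters' processing notes name STAR 2.4.2, bedtools and the mm10 build, without giving each one's part. The RNA-seq and RPF files as deposited hold whole-number counts per RefSeq transcript and RPM values made by the authors, counted on the coding sequence without its first 50 nt (98.7% of 15299 lengths compared). The TAIL-seq files as deposited hold tags per gene with mean and median tail length (nt), computed by the authors from the sequencer's signal. The combined table of the series holds log2 TE values made by the authors, of which the glu/gly, control and GFP columns were used as an alternative.

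Of 15789 accessions, 15664 had a symbol in RefSeq (GRCm38.p6), which also gave positions, lengths and promoters. Folds were ratios of CPM, scaled to the counts on genes, compared at 50 counts in the 2 libraries together (2-fold), with exact 95% Clopper-Pearson intervals. TE was RPF RPM over RNA-seq RPM at 10 RPM or more in both cultures, and mean tails were compared at 50 tags in both (20 nt). TE and RPFs per tag had 95% intervals from the 4 counts, by a normal approximation of the log ratio, where each count was at least 10. Depth ranged from 508771 to 601563 RNA-seq reads, 2812215 to 4337282 RPFs and 799603 to 1042761 tags. With 1 library per group no test was run, and these folds describe libraries, not conditions. The code was tested on simulated data. Named genes were listed genes past 2-fold in 1 or more assays and known markers of each list, genes past 2-fold in all 3 or in 2 assays, the 10 largest TE and tail changes in each direction, and Camk2a, Pnrc1, Spred1 and Nrsn1. Members and lists were chosen with earlier results of these data known. The matrix and fibroblast and the interferon lists, and Fbln5, Pmaip1, Lgals1, Isg15, Ifit1 and other genes short of the thresholds named beside them, were chosen after their values were seen. A few genes that met these rules are not reported here. Python 3.11.15, pandas 2.3.3, numpy 2.4.6, scipy 1.17.1 and matplotlib 3.10.9 were used.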

Additional observations from a re-analysis of the deposited data

How the results depend on the processing

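No paired analysis was possible because each culture gave 1 library per assay and the labels number no replicates. Of 58 recomputed values, 15 were the same within their limits, 42 moved and 1 turned direction. RNA-seq genes past 2-fold numbered 166, and 500 at a minimum of 20 counts, 62 at 100, 760 at 1.5-fold, 86 with coding sequences of at most 3000 nt and 109 against the BDNF culture. RPF genes numbered 160, and 428, 48 and 968 under the first 3 of these settings and 277 with the RPM of the authors. Tag genes numbered 48, and 274, 14 and 414, and 117 against the GFP culture. The 5 genes past 2-fold in all 3 assays became 10, 3 and 21, and 14 with RPFs and tags only. Against the GFP culture they were Arc, C3, Fos, Junb and Nr4a1. The split of higher and lower genes moved with scaling, from 121 and 45 to 154 and 28 (median of gene ratios) or 169 and 22 (RPM) in RNA-seq, and from 31 and 129 to 39 and 100 or 19 and 258 in RPFs. TE genes past 2-fold numbered 197 (3 higher, 194 lower), and 28 at 30 RPM, 64 when centered (21 higher, 43 lower), 376 against GFP, 44 with tags in place of RNA-seq reads and 119 with coding sequences of at most 3000 nt. The SD of the TE change was 0.389, and 0.300, 0.412, 0.352 and 0.374 under the same settings in order, leaving out centering. The authors' log2 TE gave 197 and 0.389. Genes with tails changed by 20 nt numbered 91 (10 longer, 81 shorter), and 13 at 100 tags, 0 at 200, 36 against GFP, 808 at 10 nt, 53 when centered (29 longer, 24 shorter), 242 with median tails and 475 at 20 tags. The median tail change of -4.68 nt was -4.69, -4.56, 3.82, -6.0 and -4.66 nt at 100 tags, at 200 tags, against GFP, with median tails and at 20 tags, so it reversed against GFP. The median RNA-seq change of IEG transcription factors, 1.97, was 0.19 in RPFs, 0.44 in tags, 2.05 with median-ratio scaling, 1.66 against GFP and 0.84 at 20 counts. The BDNF reference, the limit on coding-sequence length, tags in place of reads, median tails, 20 tags and RPFs with tags only were chosen after seeing the data. Apart from the settings that change how many genes are compared, the cause of these moves was not tested. Depth limits RNA-seq most, since most IEGs had under 10 reads in the control.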

Other observations

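The 3 genes that follow had their highest RPF level in the control culture. C3 and Slco1a4 lie outside the groups above, while Acta2 belongs to the endothelial and mural markers. C3, the central complement component, had 5088 RPFs in the control, 2855 after glu/gly, 3671 after BDNF and 965 in the GFP culture, and 347, 257, 218 and 55 RNA-seq reads. The libraries held 4337282, 2812215, 3697441 and 2949577 RPFs on genes, so these raw counts are not on the same scale. Scaled to those totals, the C3 RPF level after glu/gly lay between the levels of the control and the BDNF culture. Slco1a4, an anion transporter of brain endothelium and some glia, had 154, 45, 78 and 27 RPFs in the same order. Acta2, the smooth-muscle actin of mural cells and myofibroblasts, had 622, 218, 198 and 223 RPFs. The endothelial and mural markers together had 918, 320, 315 and 351, so Acta2 made up most of that sum. The 3 genes were named here after their values were seen, and other genes of the kinds of C3 and Slco1a4 were not counted. The GFP culture was the lowest of the 4 for C3 and Slco1a4, while for Acta2 the BDNF culture was.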
